A study of Mus musculus with 11 samples.

Results

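The keratin-associated protein (Krtap) family of the mouse was described in whole skin of mice given a toxin that targets regulatory T cells (Tregs) in early or late neonatal life. Its members were taken as every gene of the count table whose symbol is Krtap followed by a number, which gave 56 of 49315 genes, in 26 subfamily numbers. Of these, 55 had enough counts to be tested. Krtap13 had 2 counts in all 11 libraries together and was not tested.

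Keratin-associated proteins fill the space between the keratin filaments of the hair shaft and are cross-linked to them through disulfide bonds between cysteines. They are made late in the differentiation of the cells that leave the hair matrix, after the hair keratins themselves, and are not a feature of the epidermis between the follicles. In neonatal mice the follicles are building their first hair. The proteins fall into small, glycine- and tyrosine-rich members and cysteine-rich members of high or ultra-high sulfur content. Members of the 5 and 10 groups are known from the cuticle, the scale layer of the shaft, in other mammals.

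The animals were Foxp3-DTR mice, in which the Foxp3 promoter drives the diphtheria toxin (DT) receptor, so that DT removes cells that express Foxp3. The genotype is shared by all 11 mice, and the labels give 1 batch. Treg-sufficient controls (labelled PBS, n = 2 mice) were set against ΔETreg mice (EarlyDT, n = 3, DT on P6 and P8, harvested on P9), ΔLTreg mice (LateDT, n = 3, DT on P10 and P12, harvested on P13) and ΔTreg mice (FullDT, n = 3, DT on P6, P8, P10 and P12, harvested on P13), where P is the postnatal day. Each library came from a skin biopsy of 1 mouse. The study describes its comparisons as age-matched, but the labels do not say on which day the 2 control mice were taken. Age and treatment therefore cannot be told apart in any of the 3 comparisons with control. The ΔETreg and ΔLTreg groups differ both in age and in the window of depletion, and the ΔLTreg and ΔTreg groups were of the same age. The same control libraries serve in every comparison with control.

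The members lie in 5 clusters of GRCm38. Chromosome 11 holds 23 members within 443.9 kb (99550130 to 99993994), chromosome 16 holds 24 within 960.5 kb (88610705 to 89571183), chromosome 7 holds the 5 members of subfamily 5, and chromosomes 1 and 10 hold 2 each. In GENCODE M21, 54 of the 56 genes are 1 exonic block without an intron, and exons of 1 member, Krtap24-1, overlap another gene, Gm49688. By the composition of the annotated proteins, 19 members were high glycine-tyrosine, 20 high sulfur and 16 ultra-high sulfur, and Krtap19-9a has no coding annotation. Krtap28-10, Krtap28-13, Krtap5-2 and Krtap5-3 passed both composition limits and were counted as high glycine-tyrosine. Genes of 1 number need not be neighbours, as Krtap16-1 (chromosome 11, high sulfur) and Krtap16-3 (chromosome 16, high glycine-tyrosine) do.

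Paralogues can share reads, and only reads that fell uniquely on 1 gene were counted. Of the 56 members, 42 shared no stretch of 150 bases with the exons of any other gene. The other 14 did, 10 of them in more than 10% of their distinct stretches of 150 bases, with the highest share in Krtap4-13 (51.2%). The share was 24.2% in Krtap31-2, 23.1% in Krtap31-1, 22.8% in Krtap9-1, 19.2% in Krtap5-1 and 10.7% in Krtap10-4, so the counts of these genes are less certain. It was 2.26% in Krtap5-2 and 0% in Krtap5-3, Krtap9-5, Krtap4-9, Krtap6-3, Krtap28-10 and Krtap28-13. At 50 bases, 41 members shared a stretch with another gene. Some of these genes carry other symbols, are not members here and lie outside the sums by subfamily number used below. They include Gm4559 (36.4% of the 50-base stretches of Krtap5-1), Gm4553 (22.2% of those of Krtap5-2) and Gm7137 (28.2% of those of Krtap10-4). The 150-base share was 9.23% in Krtap4-8. Whether counting used strand is not given in the sources used here.

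The 250 bases before the RefSeq start of 7 members are shown because their transcripts gave the largest differences below (Krtap5-2, Krtap5-3, Krtap31-2 and Krtap9-5, all lower in ΔLTreg and ΔTreg skin, and Krtap4-9, higher in ΔTreg skin), because Krtap31-1 carries the number of Krtap31-2, and because Krtap8-1 was the most abundant member. They are from RefSeq on GRCm38.p6, written 5′ to 3′ along the gene, with TATAAA, the core of the TATA box, in capitals where it occurs on the gene's strand.
Krtap5-2 (chr7:142176006-142176255, minus strand): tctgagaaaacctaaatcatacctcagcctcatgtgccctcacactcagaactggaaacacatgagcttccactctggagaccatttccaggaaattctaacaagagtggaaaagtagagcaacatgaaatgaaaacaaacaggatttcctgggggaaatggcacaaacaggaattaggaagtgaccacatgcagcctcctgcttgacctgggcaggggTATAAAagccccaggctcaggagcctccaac
Krtap5-3 (chr7:142201114-142201363, plus strand): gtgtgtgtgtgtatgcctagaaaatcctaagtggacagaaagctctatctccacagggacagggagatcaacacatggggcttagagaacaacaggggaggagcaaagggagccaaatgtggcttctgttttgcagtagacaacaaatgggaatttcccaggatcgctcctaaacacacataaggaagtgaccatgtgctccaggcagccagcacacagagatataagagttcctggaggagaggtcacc
Krtap31-1 (chr11:99907670-99907919, plus strand): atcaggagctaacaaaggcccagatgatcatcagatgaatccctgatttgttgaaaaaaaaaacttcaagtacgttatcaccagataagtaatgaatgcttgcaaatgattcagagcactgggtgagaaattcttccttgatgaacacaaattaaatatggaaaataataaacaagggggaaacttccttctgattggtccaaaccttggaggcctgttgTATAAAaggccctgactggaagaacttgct
Krtap31-2 (chr11:99936041-99936290, plus strand): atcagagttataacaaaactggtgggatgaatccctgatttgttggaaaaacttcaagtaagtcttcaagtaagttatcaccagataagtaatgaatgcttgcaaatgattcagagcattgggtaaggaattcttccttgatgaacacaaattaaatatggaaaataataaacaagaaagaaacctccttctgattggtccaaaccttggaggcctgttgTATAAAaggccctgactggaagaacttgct
Krtap9-5 (chr11:99948174-99948423, plus strand): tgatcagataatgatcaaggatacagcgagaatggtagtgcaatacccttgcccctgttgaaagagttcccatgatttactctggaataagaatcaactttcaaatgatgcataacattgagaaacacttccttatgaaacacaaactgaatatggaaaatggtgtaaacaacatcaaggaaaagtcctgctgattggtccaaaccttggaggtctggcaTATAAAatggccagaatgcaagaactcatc
Krtap4-9 (chr11:99784950-99785199, plus strand): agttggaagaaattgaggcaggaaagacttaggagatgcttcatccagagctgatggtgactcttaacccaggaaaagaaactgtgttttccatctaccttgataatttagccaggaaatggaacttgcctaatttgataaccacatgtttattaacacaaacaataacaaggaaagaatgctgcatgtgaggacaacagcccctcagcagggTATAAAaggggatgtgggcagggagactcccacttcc
Krtap8-1 (chr16:89487953-89488202, minus strand): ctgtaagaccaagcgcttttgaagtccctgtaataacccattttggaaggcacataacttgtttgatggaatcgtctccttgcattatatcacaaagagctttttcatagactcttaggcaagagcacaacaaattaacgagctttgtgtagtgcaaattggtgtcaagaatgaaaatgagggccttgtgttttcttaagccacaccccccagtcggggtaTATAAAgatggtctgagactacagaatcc

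Of the 56 members, 50 had a RefSeq promoter entry. The letters TATAAA, searched on both strands, occurred in these 250 bases in 41 of the 50 (82%), against 12.4% of 32851 mouse promoters. On the gene's own strand and between 40 and 16 bases before the start they occurred in 31 of the 50 (62%), against 1.99% of all promoters. The 9 promoters without TATAAA anywhere in the 250 bases were those of Krtap14, Krtap19-1, Krtap19-2, Krtap19-3, Krtap19-4, Krtap27-1, Krtap3-3, Krtap5-3 and Krtap5-4. Among the members that were lower in ΔLTreg skin than in control (below), 9 of 11 with a promoter entry held TATAAA, and so did 31 of 38 that did not pass the test. The printed promoters of Krtap31-1 and Krtap31-2 were identical at 202 of 250 positions (80.8%) when set side by side without gaps. CTTTGAA, a core site of the hair matrix factor LEF1, occurred in 6 of the 50 (12%), against 4.46% of all promoters. A match of letters is a description and does not show that a factor binds there.

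Total counts per library ranged from 23377571 to 34159435. At these depths 3 counts, the floor used here for a library, equal 0.0891 to 0.129 CPM (counts scaled to the usual common library size), a limit that covers counting error only. CPM below are scaled by the trimmed mean of M-values (TMM). Krtap genes held 1.08% and 0.795% of all counts in the control libraries. They held 0.746%, 1.28% and 1.05% in the ΔETreg, 0.353%, 0.843% and 0.976% in the ΔLTreg and 0.970%, 1.15% and 1.12% in the ΔTreg libraries. One library stood apart: ΔLTreg mouse 1 had the lowest summed Krtap level (3384 CPM, against 7076 to 12829 CPM in the other 10) and the lowest level of 49 of the 55 tested members. Its 15 tested hair shaft keratins summed to 3166.9 CPM, against 9128.8 to 13801.3 CPM in the other libraries. The medians over Krtap members and the counts of called members that it enters are also given without it. Foxp3, the gene that marks the targeted cells, had 14 and 20 counts in control and 9 to 23 counts in the other libraries, so at this depth the libraries do not themselves show a loss of Foxp3 RNA in any group. In whole skin, fewer hair-forming cells and less RNA per cell cannot be told apart.

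**Figure D1:**
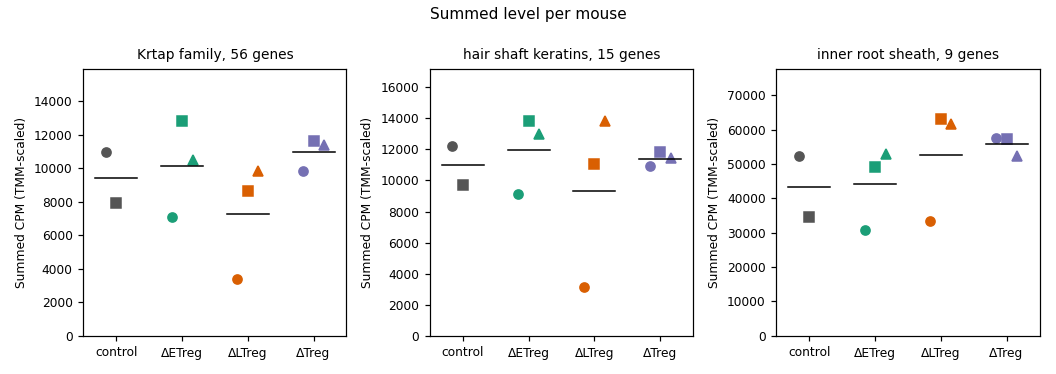
Summed level per mouse of the 56 Krtap genes, of 15 hair shaft keratins and of 9 inner root sheath genes (y axes, CPM scaled by TMM, from 0), by group (x axis). Each symbol is 1 mouse, with circle, square and triangle for mouse 1, 2 and 3 of a group, and the bar is the group mean; ΔLTreg mouse 1 lies lowest for the Krtap genes (3384 CPM) and the hair shaft keratins (3166.9 CPM).

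Per kilobase of exon, so that genes of different length can be compared, Krtap8-1, a glycine- and tyrosine-rich protein of the shaft, had the highest mean level over the 11 libraries (1930.4 CPM per kb), before Krtap7-1 (1587.3 CPM per kb), Krtap11-1 (685 CPM per kb) and Krtap16-3 (648 CPM per kb). Of the tested members, 36 were above 100 CPM per kb and 5 were below 10 CPM per kb. Krtap8-1 and Krtap7-1 held the 2 highest counts of the family in each of the 11 libraries. The 10 highest members of a library held between 52.5% and 63.0% of its Krtap counts. Krtap8-1 itself had 1213.4 and 962 CPM in control, 897, 1313.0 and 1191.8 CPM in ΔETreg mice, 397, 1140.3 and 1311.3 CPM in ΔLTreg mice and 1172.8, 1311.5 and 1277.9 CPM in ΔTreg mice. Apart from ΔLTreg mouse 1, every library lay between 897 and 1313.0 CPM, and the groups overlapped. The least abundant tested members per kilobase were Krtap5-3 (1.61 CPM per kb), Krtap20-2 (1.88 CPM per kb) and Krtap5-2 (2.80 CPM per kb).

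The first comparison set ΔETreg against control skin. No member passed the test between ΔETreg and control skin. By the quasi-likelihood test of edgeR, with p-values adjusted by Benjamini-Hochberg over 18375 genes, 0 of 55 members passed an adjusted p of 0.05, 0 had an unadjusted p under 0.05, and DESeq2 called 0. Of all genes tested, 0.00544% were called. The members' log2 fold changes ran from -0.34 (Krtap20-2) to 0.52 (Krtap4-1), with a median of 0.06 against -0.01 over all genes. Standard errors were wide, 0.546 for Krtap4-1 and 0.370 for Krtap8-1. Within the ΔETreg group, mouse 2 had the highest level of 25 of the 55 members among all 11 mice and mouse 1 the lowest of 2. Of the 26 subfamily sums 0 passed, 0 had an unadjusted p under 0.05 and 0 passed with DESeq2, where 0.00545% of the table with sums was called.

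The second comparison set ΔLTreg against control skin. In ΔLTreg skin 12 of 55 members (21.8%) were lower than in control and 0 were higher, where 2.69% of all genes tested were lower and 1.86% higher. They were all 5 members of subfamily 5, both members of subfamily 28, and Krtap31-2, Krtap9-5, Krtap6-3, Krtap10-4 and Krtap21-1. Their log2 fold changes ran from -6.46 to -1.46. Of the 55 members, 46 had a negative and 9 a positive log2 fold change, and the median was -0.45, against 0 over all genes. Without control mouse 1, which leaves 1 control mouse whose spread is assumed to equal that of the other groups, 5 members passed (Krtap28-10, Krtap28-13, Krtap5-2, Krtap5-3 and Krtap6-3). Without ΔLTreg mouse 1, 12 passed (21.8%, against 4.96% of all genes in either direction). The median then moved to -0.19, with 30 negative and 25 positive values. With edgeR on the 2 groups only, Krtap31-2 and Krtap10-4 did not pass.

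The largest differences were in Krtap5-2 (ENSMUSG00000054759, chromosome 7, 142174535 to 142176005, minus strand) and Krtap5-3 (ENSMUSG00000046248, chromosome 7, 142201364 to 142203015, plus strand), a neighbouring pair of cysteine- and glycine-rich members in the cluster on chromosome 7. Krtap5-2 had 392 and 159 counts in control and 125, 396 and 159 counts in ΔETreg skin. It had 7, 3 and 0 counts in ΔLTreg and 9, 3 and 9 counts in ΔTreg skin. Each of the 6 ΔLTreg and ΔTreg mice had fewer counts than any of the other 5, and 3 of the 6 were at or under the floor of 3 counts. The log2 fold change against control was -6.46 (SE 0.723, adjusted p = 0.00115, edgeR) in ΔLTreg and -5.38 (SE 0.647, adjusted p = 0.000205) in ΔTreg skin, with wide limits at such low counts. Krtap5-3 had 225 and 113 counts in control, 76, 220 and 133 in ΔETreg mice, 5, 5 and 2 in ΔLTreg mice and 5, 12 and 11 in ΔTreg mice. Its log2 fold change was -5.51 (SE 0.533, adjusted p = 0.000705) in ΔLTreg and -4.30 (SE 0.468, adjusted p = 0.000105) in ΔTreg skin. Both genes passed in each of the fits that left out 1 mouse.

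The other 3 members of subfamily 5, which are ultra-high sulfur proteins, were lower by less. Krtap5-5, the most abundant of the 5 by CPM, had 118 and 78.9 CPM in control, 62.1, 125 and 103 in ΔETreg mice, 17.7, 30.9 and 24.3 in ΔLTreg mice and 35.5, 56.9 and 56.4 in ΔTreg mice. The ΔTreg mice lay between the control and the ΔLTreg mice without overlap. Its log2 fold change against control was -2.02 (SE 0.314, adjusted p = 0.00611) in ΔLTreg and -0.99 (SE 0.307, adjusted p = 0.0419) in ΔTreg skin. For Krtap5-4 and Krtap5-1 it was -2.05 (SE 0.348, adjusted p = 0.00934) and -1.84 (SE 0.338, adjusted p = 0.0139) in ΔLTreg skin. Per 100 counts of Krtap5-5 in the same library, Krtap5-2 had 11.6 and 8.03 counts in control and 6.61 to 10.4 in ΔETreg, against 0 to 1.18 in ΔLTreg and 0.156 to 1.09 in ΔTreg libraries. Within the cluster the levels thus did not move in proportion. Without control mouse 1, Krtap5-1, Krtap5-4 and Krtap5-5 no longer passed in ΔLTreg skin, with adjusted p-values of 0.103, 0.0750 and 0.0578. The sum of subfamily 5, which keeps reads exchanged between its own members, was 261 and 175 CPM in control and 37.2, 65.3 and 50.4 CPM in ΔLTreg skin (log2 fold change -2.10, SE 0.329, adjusted p = 0.00638).

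**Figure D2:**
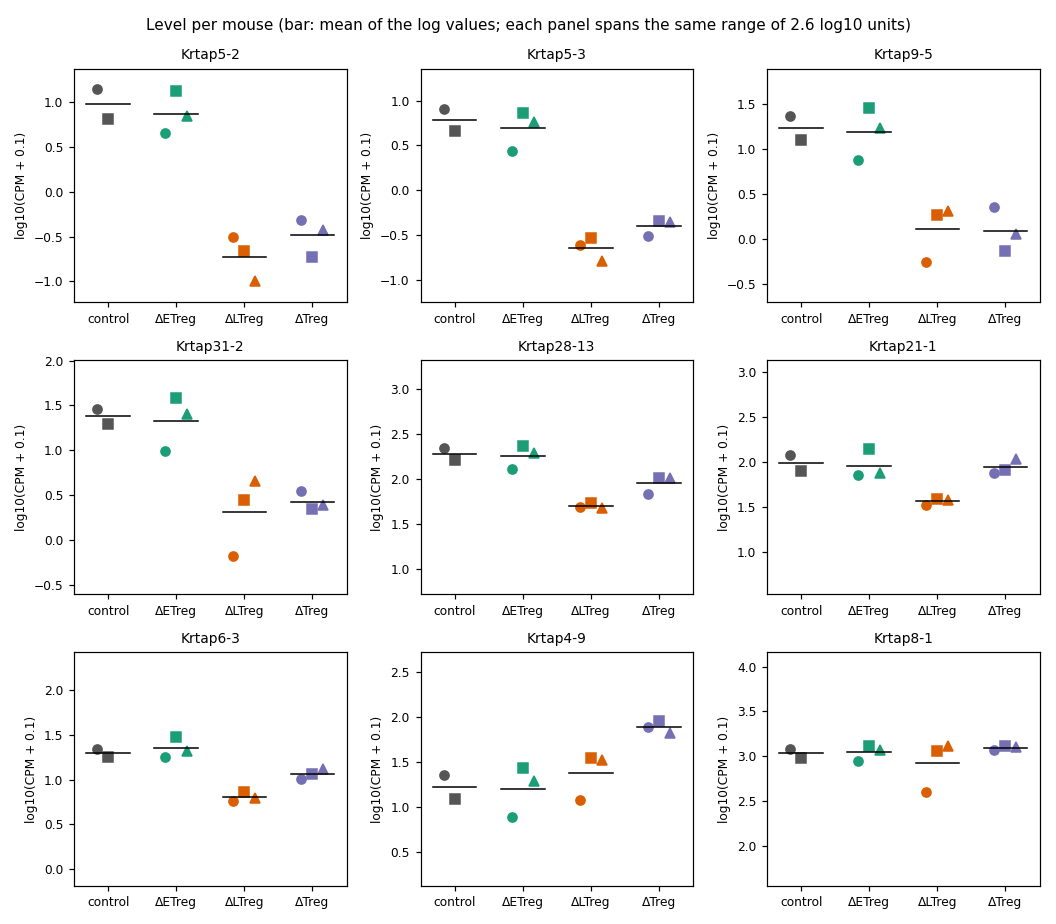
Level per mouse of 9 Krtap genes (y axes, log10 of CPM plus 0.1, each panel spanning an equal range of 2.6 log10 units) by group (x axis), with circle, square and triangle for mouse 1, 2 and 3 and a bar at the mean of the log values. Krtap5-2, Krtap5-3, Krtap9-5 and Krtap31-2 lie lower in every ΔLTreg and ΔTreg mouse than in any control or ΔETreg mouse, Krtap4-9 lies highest in the 3 ΔTreg mice, and Krtap8-1 overlaps between groups.

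Both members of subfamily 28 were lower in ΔLTreg skin. Krtap28-10 (chromosome 1, 83041524 to 83042480, minus strand) had 276 and 191 CPM in control, 156, 275 and 234 in ΔETreg mice, 74.1, 73.4 and 62.7 in ΔLTreg mice and 94.3, 136 and 123 in ΔTreg mice. The 3 ΔLTreg mice were the lowest, the 3 ΔTreg mice came next, and neither overlapped control. The log2 fold change against control was -1.74 (SE 0.227, adjusted p = 0.00219) in ΔLTreg and -0.98 (SE 0.225, adjusted p = 0.0100) in ΔTreg skin. Its neighbour Krtap28-13 had 222 and 161 CPM in control and 48.1, 54.0 and 46.9 CPM in ΔLTreg skin (log2 fold change -1.95, SE 0.232, adjusted p = 0.00150), and 68.3, 103 and 101 CPM in ΔTreg skin (log2 fold change -1.08, SE 0.230, adjusted p = 0.00684). ΔLTreg mouse 1, low for most members, was not the lowest of its group for either gene. The sum of the subfamily was lower in both groups, with log2 fold changes of -1.83 (SE 0.227, adjusted p = 0.00174) and -1.03 (SE 0.226, adjusted p = 0.00794). Without control mouse 1 neither gene passed in ΔTreg skin (adjusted p = 0.0946 for Krtap28-10 and 0.0644 for Krtap28-13).

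On chromosome 11, 2 of 23 members were lower in ΔLTreg skin, where 2.69% of all genes tested were lower. These 2 members are next to each other in the cluster. Krtap31-2 (ENSMUSG00000051481, 99936291 to 99937225, plus strand), a high sulfur protein, had 29.1 and 19.4 CPM in control, 9.68, 37.8 and 25.2 in ΔETreg mice, 0.566, 2.67 and 4.45 in ΔLTreg mice and 3.43, 2.11 and 2.35 in ΔTreg mice. Every ΔLTreg and ΔTreg mouse was below every other mouse. The log2 fold change was -3.25 (SE 0.618, adjusted p = 0.0164) in ΔLTreg and -3.23 (SE 0.619, adjusted p = 0.00370) in ΔTreg skin. Krtap9-5 (ENSMUSG00000078255, 99948475 to 99949551, plus strand), an ultra-high sulfur protein, had 23.0 and 12.6 CPM in control, 7.45, 28.4 and 17.1 in ΔETreg mice, 0.447, 1.76 and 1.94 in ΔLTreg mice and 2.14, 0.624 and 1.02 in ΔTreg mice. Its log2 fold change was -3.71 (SE 0.623, adjusted p = 0.00886) in ΔLTreg and -3.89 (SE 0.636, adjusted p = 0.00143) in ΔTreg skin. ΔLTreg and ΔTreg skin were not told apart for either gene, with log2 fold changes of ΔTreg over ΔLTreg of 0.02 (SE 0.655, adjusted p = 0.987) for Krtap31-2 and -0.18 (SE 0.720, adjusted p = 0.898) for Krtap9-5. Without control mouse 1 neither passed in ΔLTreg skin (adjusted p = 0.0916 for Krtap31-2 and 0.0682 for Krtap9-5), while both passed in ΔTreg skin whichever mouse was left out.

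Paralogues that carry the same number differed from these 2 genes. Krtap31-1, with 80.8% of its printed promoter identical to that of Krtap31-2, had 31.8 and 20.6 CPM in control, 2.38, 9.41 and 14.4 in ΔLTreg mice and 15.4, 15.6 and 17.9 in ΔTreg mice, and its log2 fold changes of -1.59 (adjusted p = 0.131) and -0.69 (adjusted p = 0.403) did not pass. Per 100 counts of Krtap31-1 in the same library, Krtap31-2 had 91.4 and 94.4 counts in control, 68.0, 91.9 and 79.7 in ΔETreg mice, 23.8, 28.3 and 30.8 in ΔLTreg mice and 22.3, 13.5 and 13.1 in ΔTreg libraries. This ratio is set within a library, so that a change common to both genes cancels. Krtap9-3, the most abundant gene numbered 9, had log2 fold changes of -0.09 (adjusted p = 0.940) in ΔLTreg and 0.42 (adjusted p = 0.567) in ΔTreg mice. Per 100 counts of Krtap9-3, Krtap9-5 had 7.06 and 6.29 counts in control and 4.39 to 6.96 in ΔETreg, against 0.448 to 0.611 in ΔLTreg and 0.168 to 0.672 in ΔTreg libraries. The summed level of the 3 genes numbered 9 therefore hid the difference in Krtap9-5, with a log2 fold change of -0.15 (adjusted p = 0.894) in ΔLTreg skin. The 2 genes of subfamily 31 share reads with other genes, as given above, and Krtap9-5 does not at 150 bases.

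**Figure D3:**
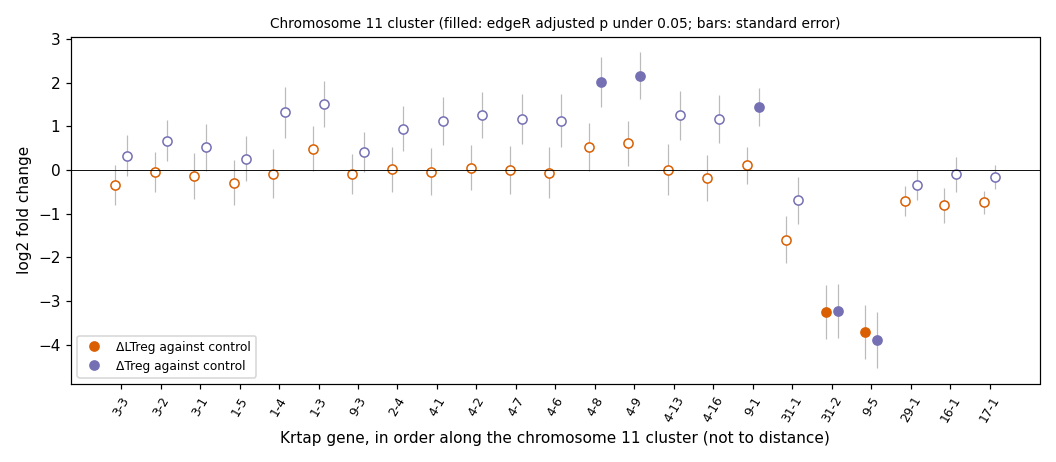
Log2 fold change against control (y axis, bars are standard errors) of the 23 Krtap genes of chromosome 11 in their order along the cluster (x axis, equal steps rather than distance), for ΔLTreg and ΔTreg skin, with filled symbols for an edgeR adjusted p under 0.05. Krtap31-2 and Krtap9-5 stand lowest, at -3.25 and -3.71 in ΔLTreg skin, and the genes numbered 4 lie between 1.12 and 2.16 in ΔTreg skin.

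On chromosome 16, 2 of 23 tested members, both glycine- and tyrosine-rich, were lower in ΔLTreg skin, against 2.69% of all genes tested. Krtap6-3 had 21.6 and 17.5 CPM in control, 17.5, 29.9 and 20.5 in ΔETreg mice, 5.60, 7.18 and 6.11 in ΔLTreg mice and 9.95, 11.3 and 13.1 in ΔTreg mice. The log2 fold change was -1.64 (SE 0.212, adjusted p = 0.00213) in ΔLTreg and -0.77 (SE 0.207, adjusted p = 0.0221) in ΔTreg skin. Per 100 counts of its abundant paralogue Krtap6-5, it had 7.06 to 9.37 counts in the 5 control and ΔETreg libraries, 4.0 in ΔLTreg mouse 1 and 2.38 to 2.99 in the other 5. Krtap6-5 itself had log2 fold changes of -0.18 (SE 0.281, adjusted p = 0.783) in ΔLTreg and 0.72 (SE 0.288, not called) in ΔTreg skin. Krtap21-1 had 120 and 78.2 CPM in control, 32.7, 38.3 and 37.3 in ΔLTreg mice and 74.7, 81.2 and 106 in ΔTreg mice, and its log2 fold change was -1.46 (SE 0.272, adjusted p = 0.0145) in ΔLTreg skin. In ΔTreg skin its levels overlapped those of control. The 7 members of subfamily 19 all had negative log2 fold changes in ΔLTreg skin, from -1.12 to -0.41, and none passed (their sum, -0.73, SE 0.331, adjusted p = 0.245). Without ΔLTreg mouse 1 the 7 values ran from -0.85 to -0.19 and the sum was -0.49. On chromosome 10, Krtap10-4 had 98.8 and 75.6 CPM in control and 13.2, 37.0 and 37.4 CPM in ΔLTreg skin (log2 fold change -1.59, SE 0.388, adjusted p = 0.0446), a call that DESeq2 did not make and that was lost without any 1 of 7 mice. Krtap12-1 on the same chromosome gave -0.63 on the log2 scale (adjusted p = 0.307).

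**Figure D4:**
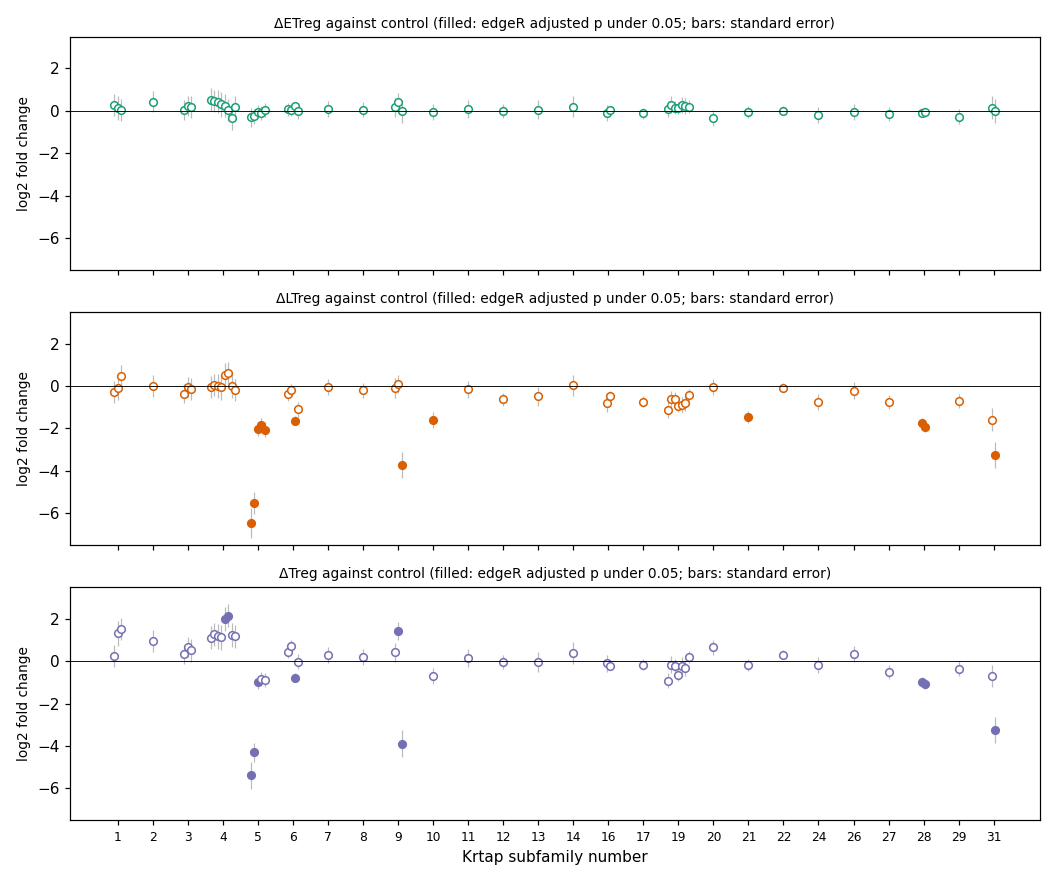
Log2 fold change against control (y axis, bars are standard errors) of the 55 tested Krtap genes by subfamily number (x axis), in ΔETreg, ΔLTreg and ΔTreg skin, with 1 symbol a gene and filled symbols for an edgeR adjusted p under 0.05. No symbol is filled in ΔETreg skin, 12 are filled below 0 in ΔLTreg skin, and 8 below and 3 above 0 are filled in ΔTreg skin.

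The third comparison set ΔTreg against control skin. In ΔTreg skin 8 of 55 members were lower than in control and 3 were higher, where 9.39% of all genes tested were lower and 12.1% higher. The share of members called, 20%, was close to that of all genes. The median log2 fold change of the members was -0.02, against -0.01 over all genes. The 8 lower members were Krtap5-2, Krtap5-3, Krtap5-5, Krtap28-10, Krtap28-13, Krtap31-2, Krtap9-5 and Krtap6-3, with the values above. The count depended on the test: with DESeq2 on the 2 groups 13 members were lower and 16 higher, and with edgeR on the 2 groups 15 were lower and 15 higher. In those fits 18.0% and 22.4% of all genes tested were called, against 52.7% and 54.5% of members. The count was lower without either control mouse, which leaves 1 control mouse. It was 7 without ΔTreg mouse 1 or mouse 2, and 18 without ΔLTreg mouse 1, whose spread enters the shared estimate. Without ΔLTreg mouse 1, 32.7% of members and 24.8% of all genes tested were called. Krtap5-2, Krtap5-3, Krtap9-5 and Krtap31-2 passed whichever mouse was left out, while Krtap5-5 failed without any 1 of the control or ΔTreg mice and Krtap6-3 without control mouse 1 or ΔTreg mouse 1 or 2.

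The 3 higher members were Krtap4-9, Krtap4-8 and Krtap9-1, all ultra-high sulfur proteins of chromosome 11, of which the first 2 were named after their values were seen. Krtap4-9 (chromosome 11, 99785200 to 99786258, plus strand) had 22.4 and 12.1 CPM in control, 7.66, 27.0 and 19.3 in ΔETreg mice, 11.8, 34.6 and 33.3 in ΔLTreg mice and 77.6, 89.9 and 65.7 in ΔTreg mice. Every ΔTreg mouse was above every other mouse. The log2 fold change against control was 2.16 (SE 0.531, adjusted p = 0.0144), and without control mouse 2 it no longer passed (adjusted p = 0.140). Per 100 counts of Krtap4-1 in the same library, Krtap4-9 had 16.9 and 15.4 counts in control and 10.8 to 12.5 in ΔETreg libraries. It had 23.0 to 34.9 in ΔLTreg and 28.8 to 37.6 in ΔTreg libraries, so these groups overlapped and lay above the others. Krtap4-8 had 34.7 and 19.4 CPM in control and 109, 124 and 96.3 CPM in ΔTreg skin (log2 fold change 2.01, SE 0.572, adjusted p = 0.0287). Krtap9-1 had 35.4 and 22.9 CPM in control and 72.6, 89.7 and 74.8 CPM in ΔTreg skin (log2 fold change 1.44, SE 0.428, adjusted p = 0.0351). Krtap4-8 was no longer called without control mouse 1 or 2 or ΔTreg mouse 1 or 2, nor Krtap9-1 without any 1 of the control or ΔTreg mice. All 8 members of subfamily 4 had positive log2 fold changes, from 1.12 to 2.16, of which 2 passed. Their sum was 600 and 329 CPM in control, 279, 860 and 667 in ΔETreg mice, 163, 611 and 648 in ΔLTreg mice and 1058.4, 1265.6 and 1071.1 in ΔTreg mice. The sum did not pass, at a log2 fold change of 1.28 (SE 0.560, adjusted p = 0.130). Krtap1-3 and Krtap1-4, also on chromosome 11, had log2 fold changes of 1.51 (adjusted p = 0.0629) and 1.32 (adjusted p = 0.136).

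By sequence class, the median log2 fold change in ΔLTreg skin was -0.90 over the 19 high glycine-tyrosine members, of which 6 were lower, -0.29 over the 19 tested high sulfur members, of which 1 was lower, and -0.05 over the 16 ultra-high sulfur members, of which 5 were lower. In ΔTreg skin these medians were -0.20, 0.26 and 1.15, with 5 lower, 1 lower, and 2 lower and 3 higher members. Of all genes tested, 2.69% were lower in ΔLTreg skin, and 9.39% were lower and 12.1% higher in ΔTreg skin. The 16 ultra-high sulfur members include the 8 of subfamily 4, all on chromosome 11. By position, the medians in ΔLTreg skin were -2.05 on chromosome 7, -1.84 on chromosome 1, -1.11 on chromosome 10, -0.48 on chromosome 16 and -0.08 on chromosome 11. In ΔTreg skin they were -0.99, -1.03, -0.35, -0.03 and 0.95 in that order. The classes and the clusters overlap, since chromosome 7 and 1 hold the members that passed both composition limits, and no test of a class against another was made. Krtap28-10, Krtap28-13, Krtap5-2 and Krtap5-3, among the lower high glycine-tyrosine members in both groups, also passed the cysteine limit (34.6% to 42.9% cysteine). The order of the limits alone puts them in this class, so the counts and medians by class depend on it. With ΔLTreg mouse 1 left out, the class medians against control were -0.58, 0.13 and 0.37, with the number of lower members at 6, 1 and 5, and the medians of chromosomes 7, 1, 10, 16 and 11 were -1.88, -1.85, -0.76, -0.27 and 0.33.

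The ΔTreg and ΔLTreg groups, both harvested on P13, were compared directly. In ΔTreg skin 10 of 55 members were higher than in ΔLTreg skin and 0 were lower, where 10.7% of all genes tested were higher and 6.11% lower. The median log2 fold change was 0.71, against 0 over all genes, and 54 of 55 members had a positive value, with 18.2% of them called. The 10 were Krtap28-10, Krtap28-13, Krtap5-4, Krtap5-5, Krtap6-2, Krtap6-3, Krtap6-5, Krtap21-1, Krtap4-9 and Krtap9-1. Krtap21-1 gave the smallest p, at a log2 fold change of 1.27 (SE 0.250, adjusted p = 0.00516), and did not overlap between the groups. Krtap6-3 (0.87, SE 0.198, adjusted p = 0.0115) and Krtap28-13 (0.87, SE 0.213, adjusted p = 0.0165) came next. Krtap5-2 and Krtap9-5, at the floor or near it in both groups, had log2 fold changes of 1.08 (SE 1.17, adjusted p = 0.586) and -0.18. Without ΔLTreg mouse 1 the median was 0.38, with 47 positive values, and 4 members passed (7.27%, against 16.1% of all genes in either direction), since Krtap28-10, Krtap4-9, Krtap5-4, Krtap5-5, Krtap6-2 and Krtap6-5 were lost. The count was 6 without ΔTreg mouse 1 and 2 without ΔTreg mouse 2 or mouse 3. Krtap21-1 and Krtap6-3 passed in each of the fits that left out 1 mouse.

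Between ΔETreg skin of P9 and ΔLTreg skin of P13, 13 of 55 members were higher in ΔETreg skin and 0 were lower, where 3.27% of all genes tested were higher and 3.12% lower. The median log2 fold change was 0.53, against -0.01 over all genes. The largest values were those of Krtap5-2 (6.15, SE 0.704, adjusted p = 0.00106), Krtap5-3 (5.25, SE 0.516, adjusted p = 0.000617), Krtap9-5 (3.70, SE 0.593, adjusted p = 0.00599) and Krtap31-2 (3.25, SE 0.585, adjusted p = 0.0102). The other 9 were Krtap5-1, Krtap5-4, Krtap5-5, Krtap28-10, Krtap28-13, Krtap6-3, Krtap10-4, Krtap21-1 and Krtap19-4. The groups differ in age and in the window of depletion, which cannot be told apart. Leaving out 1 mouse in turn gave 11 to 15 members, and 11 of the 13 passed in each of these fits, the exceptions being Krtap10-4 and Krtap19-4. These 2 genes and Krtap31-2 (adjusted p = 0.0527 with edgeR on the 2 groups only) also lost their call in at least 1 other setting. Without ΔLTreg mouse 1, 12 passed (21.8%, against 5.60% of all genes in either direction). The median was then 0.15, with 35 positive and 20 negative values.

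Summed by number, subfamilies 5, 10, 21 and 28 were lower in ΔLTreg than in control skin, where 4.58% of the table with sums was called in either direction. Subfamilies 5 and 28 were lower in ΔTreg than in control skin, where 21.5% of the table was called. In ΔTreg against ΔLTreg skin, subfamilies 5 (log2 fold change 1.07, adjusted p = 0.0320), 6 (0.89, adjusted p = 0.0448), 21 (1.27, adjusted p = 0.00489) and 28 (0.80, adjusted p = 0.0216) were higher, where 16.9% of the table was called. In ΔETreg against ΔLTreg skin, subfamilies 5, 10, 21, 28 and 31 were higher, where 6.42% of the table was called. The sum of subfamily 31 against control was -2.16 (SE 0.571, adjusted p = 0.0583) in ΔLTreg skin and did not pass. Without control mouse 1, 1 sum passed in ΔLTreg and 0 in ΔTreg skin against control. In ΔTreg against control skin 6 passed without ΔLTreg mouse 1, and 1 passed without control mouse 2, ΔETreg mouse 3 or any 1 ΔTreg mouse. In ΔTreg against ΔLTreg skin 2 passed without ΔLTreg mouse 1 and 1 without ΔTreg mouse 2 or 3, and in ΔETreg against ΔLTreg skin 3 passed without ΔETreg mouse 2 or 3.

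The make-up of the family was described by the share of a library's Krtap counts that each subfamily held. Where that total is low, a subfamily that is not low itself holds a higher share. Subfamily 5 made up 2.38% and 2.20% of Krtap counts in control and 1.79% to 2.21% in ΔETreg libraries, and 0.512% to 1.10% in ΔLTreg and 0.791% to 1.09% in ΔTreg libraries. Subfamily 28 made up 4.55% and 4.43% in control, 3.94% to 4.08% in ΔETreg and 1.65% to 2.06% in ΔTreg libraries. In the ΔLTreg libraries its share was 3.61% in mouse 1, which had the lowest Krtap level of all, and 1.47% and 1.11% in mice 2 and 3. Subfamily 4 made up 3.95% to 7.06% of Krtap counts in the 8 control, ΔETreg and ΔLTreg libraries and 9.42% to 10.9% in the 3 ΔTreg libraries. Krtap10-4 made up 0.710% to 0.951% in the control and ΔETreg libraries and 0.379% to 0.510% in the others. Krtap8-1 stayed between 10.2% and 13.3% in all 11 libraries. Shares of 1 total are tied to each other, so that a higher share of one group lowers that of the rest, and they are given without a test.

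**Figure D5:**
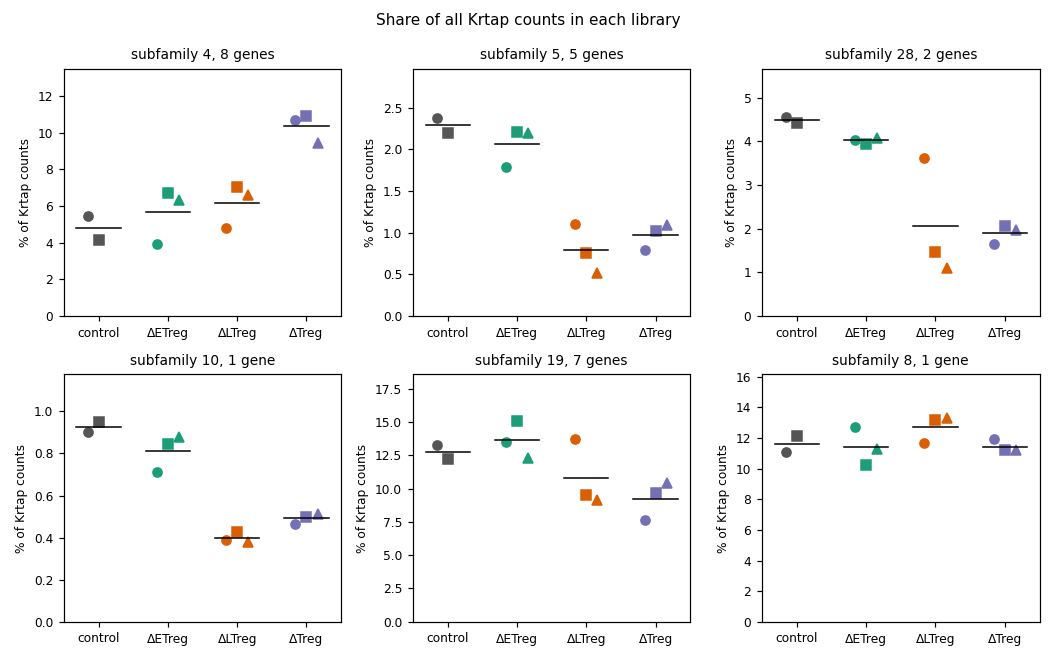
Share of all Krtap counts of a library (y axes, percent, from 0) held by subfamilies 4, 5, 28, 10, 19 and 8, by group (x axis), with 1 symbol a mouse (circle, square and triangle for mouse 1, 2 and 3) and a bar at the group mean. Subfamily 4 is highest in the 3 ΔTreg mice (9.42% to 10.9%), subfamilies 5 and 10 are lower in every ΔLTreg and ΔTreg mouse than in any other, and for subfamily 28 ΔLTreg mouse 1 (3.61%) lies apart from mice 2 and 3.

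Most of the abundant members were among those that did not pass. In ΔLTreg against control skin the log2 fold change was -0.20 (SE 0.368) for Krtap8-1, -0.03 (SE 0.378) for Krtap7-1, -0.16 (SE 0.417) for Krtap11-1 and -0.45 (SE 0.203) for Krtap16-3, with adjusted p-values of 0.241 to 0.976. The highest members of other subfamilies, Krtap1-5 (-0.29), Krtap2-4 (0.02), Krtap3-1 (-0.14), Krtap4-1 (-0.04), Krtap14 (0.03), Krtap22-2 (-0.07) and Krtap26-1 (-0.21), lay near 0 on the log2 scale. Those of Krtap13-1 (-0.48), Krtap17-1 (-0.74), Krtap19-3 (-0.59), Krtap24-1 (-0.74), Krtap27-1 (-0.73) and Krtap29-1 (-0.70) were further below 0. In ΔTreg against control skin these 17 genes had log2 fold changes between -0.51 (Krtap27-1) and 1.12 (Krtap4-1). The standard errors of the 17 in ΔLTreg skin were 0.203 to 0.539, and a missed threshold does not show that their levels were alike. Krtap4-2, among the 5 members of smallest p in ΔETreg skin, had a log2 fold change of 0.47 (SE 0.515) there.

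Other genes of the hair shaft and its follicle were counted as a background to the family. Of 16 hair shaft keratins, the filament proteins that the family embeds, 15 were in the table and tested, and 0 passed in any of the 5 comparisons. Against control, their log2 fold changes had medians of 0.13 (ΔETreg), -0.26 (ΔLTreg) and -0.01 (ΔTreg). Without ΔLTreg mouse 1 the ΔLTreg median was 0.13, so that its direction turned, and 1 hair shaft keratin was lower in ΔTreg than in ΔLTreg skin. The most abundant of them, Krt83, had 2030.3 and 1520.9 CPM in control, 432, 1872.1 and 2331.2 in ΔLTreg mice and 1727.5 to 1855.4 in ΔTreg mice, with log2 fold changes of -0.20 (SE 0.494) and 0.01 (SE 0.497). In ΔLTreg skin Krt33a had a log2 fold change of -0.32 (SE 0.470) and Krt81 of -0.22 (SE 0.516). Of 6 other hair shaft proteins 0 passed in any comparison, with median log2 fold changes of -0.02, -0.14 and -0.02 against control in the same order. Among them S100a3, a calcium-binding protein of the cuticle, had log2 fold changes of -0.19 (SE 0.229) in ΔLTreg and -0.01 (SE 0.230) in ΔTreg skin, Padi3, an enzyme that citrullinates hair proteins, 0.27 (SE 0.173) and 0.17 (SE 0.173), and Lrrc15 -0.22 (SE 0.181) and -0.04 (SE 0.181). Of the 9 inner root sheath genes 0 passed in ΔETreg or ΔLTreg skin against control. In ΔTreg skin 3 of the 9 were higher, where 12.1% of all genes tested were higher. The medians of the 9 were 0, 0.22 and 0.28. The most abundant, Tchh, the trichohyalin gene, had log2 fold changes of 0.34 (SE 0.456) in ΔLTreg and 0.56 (SE 0.459) in ΔTreg skin, and Krt71 and Krt27 had 0.07 (SE 0.184) and 0.23 (SE 0.178) in ΔTreg skin.

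Of the 11 hair matrix regulators, 0 passed in ΔETreg skin, 2 were lower in ΔLTreg skin, and 3 were lower and 1 higher in ΔTreg skin against control, with medians of 0.02, -0.09 and 0. Of all genes tested, 2.69% were lower in ΔLTreg skin, and 9.39% were lower and 12.1% higher in ΔTreg skin. Among the 11 regulators, the lowest p was that of Trps1, a zinc-finger repressor needed for hair follicle development. It had 43.4 and 45.6 CPM in control, 39.9, 40.2 and 41.0 in ΔETreg mice, 23.9, 30.6 and 29.6 in ΔLTreg mice and 32.6, 31.3 and 30.5 in ΔTreg mice. Its log2 fold change was -0.67 (SE 0.0896, adjusted p = 0.00265) in ΔLTreg and -0.50 (SE 0.0896, adjusted p = 0.00245) in ΔTreg skin. Msx1, a homeobox factor of the hair matrix, had log2 fold changes of -0.42 (SE 0.102, adjusted p = 0.0416) and -0.36 (SE 0.102, adjusted p = 0.0295), and Lef1, which acts in Wnt signalling, had -0.17 (SE 0.0882, adjusted p = 0.331) and -0.31 (SE 0.0882, adjusted p = 0.0275). Gata3 was the 1 higher gene, at 0.21 (SE 0.0647, adjusted p = 0.0419) in ΔTreg skin.

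Markers of other cells of the biopsy moved with the groups in part, and their part in the Krtap differences was not tested. Against control, 1.86% of all genes tested were higher and 2.69% lower in ΔLTreg skin, and 12.1% higher and 9.39% lower in ΔTreg skin. The 7 T cell genes summed to 12.9 to 18.8 CPM in the control, ΔETreg and ΔLTreg libraries and 53.1 to 65.9 CPM in the ΔTreg libraries, where 7 of 7 were higher than in control (median log2 fold change 2.16). Of the 7, 0 passed in ΔETreg or ΔLTreg skin (medians 0.13 and 0.20). The 7 skeletal muscle genes summed to 1524.3 and 1584.7 CPM in control, 1230.4 to 2115.8 in ΔETreg mice, 1865.9 to 6956.6 in ΔLTreg mice and 1827.7 to 3569.2 in ΔTreg libraries, with 0, 1 and 1 of 7 higher against control and medians of 0.11, 1.22 and 0.77. The 7 adipocyte genes summed to 293 to 497 CPM over all libraries, with 0 of 7 called against control in any group (medians 0.07, 0.84 and -0.67). The 9 epidermal genes summed to 10844.9 to 15169.9 CPM, with 0 called in ΔETreg, 2 lower in ΔLTreg, and 3 lower and 1 higher in ΔTreg mice (medians -0.08, -0.24 and -0.42). The sum hides genes that moved in opposite ways. Flg had 375 and 240 CPM in control, 51.2 to 73.2 in ΔLTreg and 59.0 to 66.7 in ΔTreg mice. Krt5 had 3816.7 and 4229.3 CPM in control, 4372.8 to 5113.3 in ΔLTreg and 4777.4 to 4935.8 in ΔTreg mice. The 8 cell cycle genes summed to 865 and 904 CPM in control, 890 to 915 in ΔETreg, 684 to 789 in ΔLTreg and 698 to 752 in ΔTreg libraries, with 0, 1 and 7 of 8 lower (medians 0.01, -0.21 and -0.31). In ΔTreg against ΔLTreg skin 7 of 7 T cell genes were higher (median 1.81), and 2 of 7 muscle genes (median -0.78) and 1 of 7 adipocyte genes (median -1.63) were lower. In ΔETreg against ΔLTreg skin 4 of 7 muscle genes (median -1.37) and 1 of 7 adipocyte genes (median -0.80) were lower, and 2 of 9 epidermal (median 0.16), 2 of 8 cell cycle (median 0.22) and 2 of 11 hair matrix genes (median 0.11) were higher. ΔLTreg mouse 1, low in Krtap and hair keratin RNA, had 33288.1 CPM of inner root sheath genes, against 63157.7 and 61500.2 CPM in mice 2 and 3 of its group. That sum lay between those of ΔETreg mouse 1 (30895.1 CPM) and control mouse 2 (34437.7 CPM), so it was not the lowest. The epidermal genes of ΔLTreg mouse 1 summed to 12977.1 CPM, against 13011.3 and 12183.3 CPM in mice 2 and 3.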

How the data were processed

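Whole-skin libraries of 11 Foxp3-DTR mice were analysed in 4 groups taken from the labels. The authors trimmed reads (Trimmomatic 0.36), aligned them to GRCm38 (STAR 2.5.2b) and deposited raw counts of reads falling uniquely on exons of 49315 genes (featureCounts, Subread 1.5.2), without normalization. Strand use and annotation release are not given in the sources used here.

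In R 4.3.3 with edgeR 4.0.16, genes were filtered with filterByExpr by group (18375 left), scaled by TMM and fitted in 1 model of all 11 libraries. The groups were compared by quasi-likelihood F-tests, and p-values were adjusted over all genes tested (Benjamini-Hochberg). Standard errors are the size of the log2 fold change over the root of F. The fit was repeated with the Krtap rows replaced by 1 sum for each of 26 subfamily numbers. Reads exchanged within a number stay in its sum, but those shared with genes of other symbols do not. P-values of edgeR and DESeq2 come from models fitted across genes. The scripts were tested on simulated data.

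Members and gene lists were chosen with earlier results of these data known. Named were the most abundant member of each number with a mean count of at least 10, the 5 members of smallest p in each comparison, Krtap5-2 and Krtap5-3, the 3 hair matrix regulators of smallest p, and the 3 most abundant hair shaft keratins, inner root sheath genes and other hair shaft proteins. Epidermis, T cell, skeletal muscle, adipocyte and cell cycle lists are given by counts and medians, with Flg and Krt5 named after their values were seen. Other members named were chosen after their values were seen. Classes were computed from the GENCODE M21 coding annotation: high glycine-tyrosine above 35% glycine plus tyrosine, otherwise ultra-high sulfur above 30% cysteine, otherwise high sulfur. Shared stretches are exact matches of 150 or 50 bases to the exons of another gene. Genes that are not members were searched on either strand, and other members on their own strand only.

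Alternatives were DESeq2 1.42.0 on the compared groups, edgeR on those groups only, scaling by DESeq2 size factors or by library size alone, no filter beyond 1 count, or a stricter one that asks for 10 counts or more in each library, and each mouse left out in turn. Replicates of a group differed by more than counting error (median chi-square per gene 1.02 to 3.52) and none were identical.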

Additional observations from a re-analysis of the deposited data

Results flagged for a closer look

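Members of the family differed between skin of mice given DT in the early and in the late window. Set directly against each other, ΔETreg and ΔLTreg skin differed in 13 of 55 members past an edgeR adjusted p of 0.05. All 13 were higher in ΔETreg skin (23.6%, where 3.27% of all genes tested were higher and 3.12% lower). Without ΔLTreg mouse 1, 12 passed (21.8%, against 5.60% of all genes in either direction). With no filter beyond 1 count, 31 of 56 members were higher and 1 was lower, where 2.95% of all genes tested were higher and 3.13% lower. Between ΔETreg and control skin 0 members passed, where 0.00544% of all genes tested were called. In ΔETreg against ΔLTreg skin 4 of 7 skeletal muscle genes were lower, and their part in the difference was not tested. The 2 groups also differ in age (P9 and P13), and age and window cannot be told apart.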

How the results depend on the processing

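With no filter beyond 1 count, 28 members passed in ΔLTreg against control, 30 in ΔTreg against control, 41 in ΔTreg against ΔLTreg and 32 in ΔETreg against ΔLTreg skin, and 14, 12, 21 and 14 subfamily sums. This moved every one of these counts by more than 1.5 times, and the cause was not tested. Of the 32 members, 31 were higher and 1 was lower in ΔETreg skin. Of members, 50%, 53.6%, 73.2% and 57.1% were called there, and of all genes tested 5.01%, 11.6%, 10.4% and 6.08%, against 4.55%, 21.5%, 16.8% and 6.38% with the filter. In ΔTreg against control, 29 members and 10 sums passed with DESeq2 and 30 members and 9 sums with edgeR on those groups only, against 11 and 2. In ΔETreg against ΔLTreg, 3 sums passed with DESeq2 and 3 with edgeR on those groups only, against 5; the cause was not tested. Leaving out 1 mouse in turn gave 5 to 12 members and 1 to 5 sums in ΔLTreg against control, 5 to 18 members and 0 to 6 sums in ΔTreg against control, 2 to 12 members and 1 to 4 sums in ΔTreg against ΔLTreg, and 11 to 15 members and 3 to 5 sums in ΔETreg against ΔLTreg skin. In ΔETreg against control the count was 0 throughout. No called member changed direction under any alternative. Over all calls of single members, 7 of 270 values from the other settings and 75 of 506 from fits without 1 mouse no longer passed; the 7 were calls of Krtap10-4, Krtap19-4 and Krtap31-2. Scaling by library size moved the median of all genes by less than 0.1. At 3 counts or fewer, as for Krtap5-2 in ΔLTreg skin, depth limits the size of a difference. The filter of 10 counts in each library removed Krtap5-2 and Krtap5-3 and gave no value for them. No paired analysis was possible because the labels give no replicate numbers that pair the mice.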
